A study of Mus musculus with 24 samples.

Results

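Liver RNA of 2 inbred mouse strains on a chow diet was compared gene by gene: 5 mice of 129S1/SvImJ against 6 mice of C57BL/6J. The labels name no transgene, allele or treatment in either group. The members are all 14533 genes, of 53677 in the deposited count table, that passed a filter on low counts, and every difference is stated as 129S1/SvImJ over C57BL/6J, on the log2 scale unless another scale is named. The series holds 24 mice in all, with 6 more 129S1/SvImJ and 7 more C57BL/6J on a high-fat diet, and its title names the binding of TCF7L2, a transcription factor of the Wnt pathway, as the subject. Each library is 1 mouse, and the labels do not give sex, age, diet composition or length of feeding. The library names also hold a first number that several mice share and that never occurs in both strains. What it stands for is not given, so any grouping behind it cannot be told apart from strain. Mice that share this number were treated as independent.

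129S1/SvImJ is a line of the 129 family, from which many embryonic stem cells for gene targeting were made, and C57BL/6J is the strain of the mouse reference genome and a standard model of diet-induced fatty liver. The liver is mostly hepatocytes, which make plasma proteins, bile acids and lipoproteins and clear drugs and steroids, and its blood channels hold resident macrophages, the Kupffer cells. Interferons are signals of the antiviral response: their receptors act through STAT and IRF transcription factors, which switch on a shared set of genes by binding a short promoter element. Inbred strains differ by fixed DNA variants, among them gene copies that 1 strain has lost or that are spelled differently. Reads were counted on the C57BL/6J-derived mm10 build, and the part of read mapping in any strain difference was not tested.

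The 5 libraries of 129S1/SvImJ held 7607255 to 9184270 counts and the 6 of C57BL/6J held 10162138 to 12826048, without overlap. Depth thus moved with strain, and with every library thinned to 6707013 counts 3168 genes were called, against 3636 without thinning (below). The first principal component carried 54.42% of the variance and separated the strains. Counts of 7SK RNA, an abundant non-coding RNA (Rn7sk), split both strains: 3 mice of each lay below 3375 CPM (counts scaled to the adjusted library size), and the remaining 2 of 129S1/SvImJ and 3 of C57BL/6J lay above it. Within the lower level 3435 of 3436 calls that could be refitted kept their sign, and within the higher level 3508 of 3513 did. The same mice had made those calls, so a kept sign is a weak check. Fewer mice entered each of these fits, and 2125 (58.44%) and 1058 (29.10%) of the 3636 calls were made again the same way. The Y-linked Ddx3y was read in every library at 96.2 to 143 and 120.2 to 143 CPM, and Xist was at or below 0.788 CPM in each. Albumin mRNA (Alb), a hepatocyte marker, stood at 52516 to 65060 and 62985 to 70609 CPM and was not called (adjusted p = 0.097). Alb was called lower in 129S1/SvImJ in the chow libraries alone (-0.24, adjusted p = 0.042), with the 7SK level as a term (0.0287) and within the lower level (0.0041). Fat-cell Adipoq and Lep and pancreatic Prss2 and Pnlip were at or near 0, none above 0.866 CPM. C57BL/6J is known to carry a deletion inside Nnt, a mitochondrial NADPH-making enzyme. Nnt counts were 3.73 against 5.85 CPM, a difference of -0.63 (adjusted p = 0.0413) whose call ended in 11 alternative fits, 6 of them without 1 mouse (129S1/SvImJ replicate 3 or 5, C57BL/6J replicate 1, 2, 3 or 5, adjusted p of 0.063 to 0.122). Counts over a whole gene do not show which exons were read, so they do not check the strain labels.

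Of the 14533 genes tested, 3636 (25.0%) were called for strain at an adjusted p under 0.05 (edgeR quasi-likelihood test with Benjamini-Hochberg adjustment over all genes, used for every adjusted p here). They were split evenly by direction, with 1825 (12.6%) higher and 1811 (12.5%) lower in 129S1/SvImJ. Every count of called list members below is to be read against these shares. Most differences were modest: the median size among called genes was 0.62, and 1097 genes (7.55%) were both called and at least 2-fold apart. The larger differences leaned one way, with 428 of these higher and 669 lower, and at 16-fold or more there were 60 higher and 79 lower. For 2200 genes (15.1%) no mouse of 1 strain overlapped the range of the other, and 2066 of those were called. The share called rose little with level, from 23.08% of genes under 1 CPM to 27.64% of genes at 100 CPM and over, whereas the share that was also 2-fold apart was 21.79% and 2.77% at those ends.

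Genes that respond to interferon were lower in 129S1/SvImJ as a group. Of 54 tested interferon-stimulated genes 40 were lower and 2 higher, with a median difference of -0.99, where 12.5% of all genes were lower and the median over all genes was 0.01. Of 18 tested interferon-inducible GTPases, a family that attacks the vacuoles of intracellular pathogens, 14 were lower and none higher, with a median of -1.19. None of these genes stands in both lists. The plot of called shares by list sets them beside the other groups of liver genes.

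**Figure D1:**
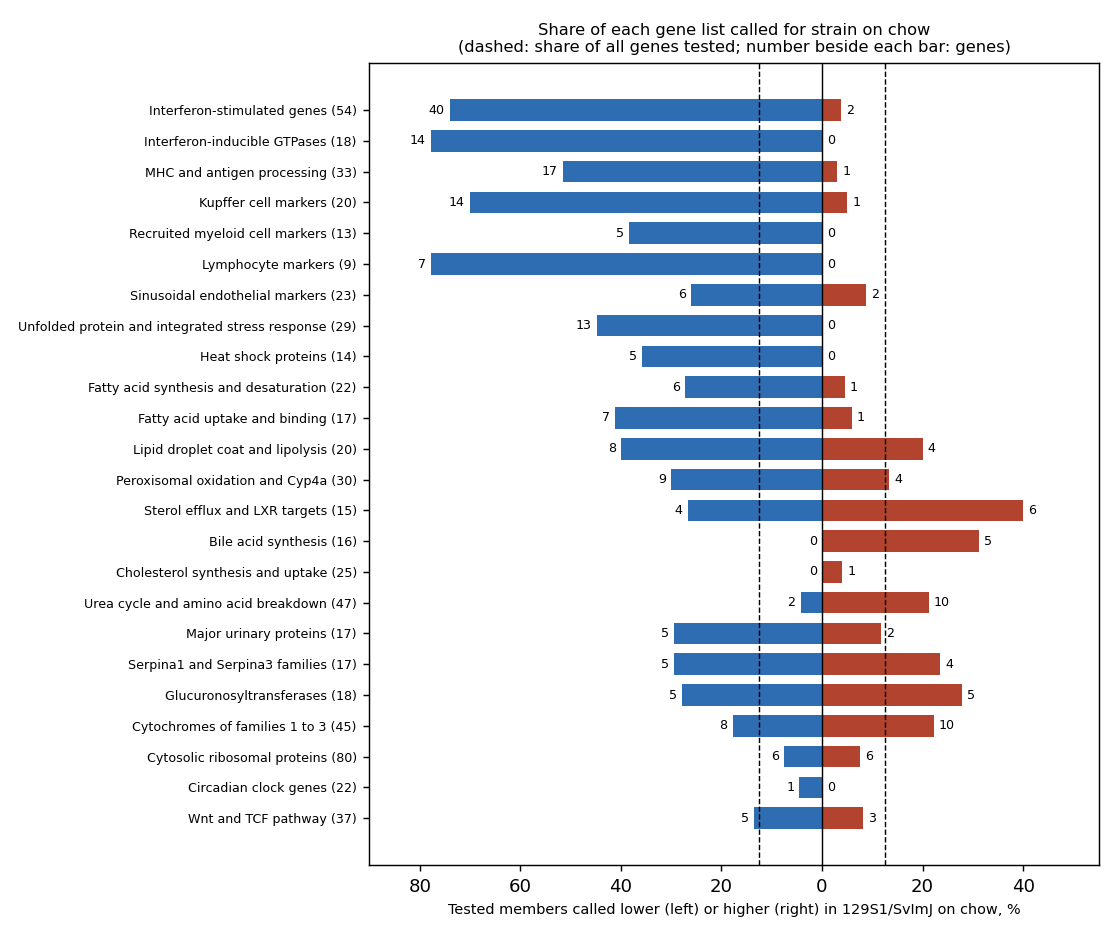
Bars give the percent of the tested members of each gene list (their number in parentheses) that were called lower (left) or higher (right) in 129S1/SvImJ on chow, with the number of genes beside each bar and dashed lines at the share of all genes tested, 12.5% lower and 12.6% higher. The interferon, Kupffer cell and lymphocyte lists reach furthest to the left, with 40 of 54, 14 of 18, 14 of 20 and 7 of 9 members lower.

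The promoters of 3 of the lower genes are printed from RefSeq (GRCm38.p6, the same assembly as mm10) because each holds the interferon-type motif that was searched, GAAANNGAAA or its reverse complement TTTCNNTTTC, in capitals. Each line gives 250 bases that end just before the annotated start, 5′ to 3′ on the gene's own strand, which is the minus strand for all of them. Bst2, whose protein tethers budding viruses to the cell surface, has its promoter at chr8:71537473-71537722. Oas3, an enzyme that makes the signal for RNA decay in infected cells, has it at chr5:120777660-120777909, and Slfn9, of the schlafen family, at chr11:82991831-82992080. The letters are those of C57BL/6J, and the letters of 129S1/SvImJ were not read.
Bst2: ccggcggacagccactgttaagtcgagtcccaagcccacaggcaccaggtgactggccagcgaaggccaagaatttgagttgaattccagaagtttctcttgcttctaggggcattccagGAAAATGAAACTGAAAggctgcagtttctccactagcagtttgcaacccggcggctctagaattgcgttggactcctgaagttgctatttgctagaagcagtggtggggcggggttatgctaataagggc
Oas3: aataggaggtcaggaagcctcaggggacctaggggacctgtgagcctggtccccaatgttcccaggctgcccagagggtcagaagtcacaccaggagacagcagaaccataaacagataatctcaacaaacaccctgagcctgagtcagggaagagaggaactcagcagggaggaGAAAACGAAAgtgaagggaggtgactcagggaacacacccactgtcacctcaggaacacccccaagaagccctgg
Slfn9: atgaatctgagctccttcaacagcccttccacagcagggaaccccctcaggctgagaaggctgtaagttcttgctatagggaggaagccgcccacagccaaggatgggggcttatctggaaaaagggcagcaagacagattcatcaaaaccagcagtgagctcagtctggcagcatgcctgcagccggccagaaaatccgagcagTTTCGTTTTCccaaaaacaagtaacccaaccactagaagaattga
In Bst2 the capitals cover 2 overlapping matches, which end 120 and 114 bases before the start. The match of Oas3 ends 65 bases before the start, and that of Slfn9, on the opposite strand, 35 bases before it.

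The motif was sought on both strands from 250 bases before to 50 after each start. It stood in 3.49% of all 27025 RefSeq promoters and in 3.13% of the 10265 promoters of tested genes. It stood in 18 of the 40 promoters found for the interferon-stimulated list (45.0%), in 15 of the 28 of its lower members (53.6%), and in all 10 found for the GTPases. Over the promoters of all genes lower in 129S1/SvImJ it stood in 76 of 1337 (5.68%). Kupffer cell markers, also lower as a group (below), held it in 0 of 16 promoters, and the list of MHC and antigen processing (below) in 5 of 23 (21.7%). The interferon lists were drawn up as genes that respond to interferon. A high share in them describes the lists and does not test the strain difference. The promoters of Irf7 and Oasl1 hold no match in this window, and Usp18 and Ifi204 have no entry. A match is a string of letters, not a measured binding site.

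Irf7, the transcription factor that amplifies the interferon response (ENSMUSG00000025498.15, chromosome 7, 141262706 to 141266481), read 10.1, 10.5, 14, 10.3 and 13.8 CPM in the 5 mice of 129S1/SvImJ and 25, 32.1 and 41.5 CPM as the lowest, median and highest of C57BL/6J. The strains did not overlap, and the difference was -1.46 (SE 0.18, adjusted p = 5.92e-07). Oasl1, a relative of the OAS enzymes that lacks their activity and restrains Irf7 translation, read 3.34, 3.77, 3.1, 1.35 and 2.1 CPM against 9.86, 15.9 and 21.2 CPM. Every 129S1/SvImJ mouse lay below every C57BL/6J mouse, by -2.48 (SE 0.24, adjusted p = 1.63e-08). Usp18 removes the ubiquitin-like protein ISG15 and dampens the interferon receptor, so it is itself a product and a brake of the response. Its counts were 2.97, 3.46, 4.32, 2.81 and 3.67 CPM against 9.01, 12.4 and 18.4 CPM, again with no overlap, a difference of -1.91 (SE 0.23, adjusted p = 3e-07). Ifi204, a DNA-sensing protein of the PYHIN family, was at 1.28 ± 0.278 CPM (SD, n = 5) in 129S1/SvImJ and 7.83 ± 1.49 CPM (SD, n = 6) in C57BL/6J, a difference of -2.61 (SE 0.26, adjusted p = 1.14e-08).

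Bst2, Oas3 and Slfn9 were chosen for the printed promoters after their values were seen. Bst2 read 27.8, 31.9, 48.7, 34.7 and 36.5 CPM against 52.5, 59 and 74.6 CPM and differed by -0.81 (SE 0.11, adjusted p = 3.69e-06). Oas3 was scarce in both strains, at 0.247, 0.628, 0.405, 0.225 and 0.131 CPM against 1.28, 2.37 and 4.14 CPM, and differed by -2.94 (SE 0.43, adjusted p = 1e-05). Slfn9 was at 1.13 against 5.45 CPM and differed by -2.28 (SE 0.29, adjusted p = 1.04e-06). For each of them the lowest C57BL/6J mouse lay above the highest 129S1/SvImJ mouse.

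The interferon-inducible GTPases followed the same direction at very different levels. Iigp1, the most abundant named here, was at 273 ± 21.9 CPM (SD, n = 5) in 129S1/SvImJ and 454 ± 87.4 CPM (SD, n = 6) in C57BL/6J, a difference of -0.73 (SE 0.14, adjusted p = 0.000296). Gbp10 was at 1.07 against 5.69 CPM and Gbp9 at 5.5 against 10.5 CPM, differences of -2.39 and -0.94. Of the 50-base stretches of Gbp10 84.1% also occur in other genes, mostly in Gbp6. Gvin1, a very large GTPase, had no count in any 129S1/SvImJ mouse and 0.932, 1.9 and 3.81 CPM as the lowest, median and highest of C57BL/6J, at least 32.3-fold lower against a floor of 3 counts over the 5 libraries. Of its stretches 99.2% occur in other annotated genes, so the counts of both Gbp10 and Gvin1 are uncertain.

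The 2 interferon-stimulated genes that were higher in 129S1/SvImJ, named after their values were seen, had no count at all in C57BL/6J. Ifi202b, a PYHIN gene known to vary between mouse strains, read 1.11, 2.62, 1.89, 1.8 and 1.57 CPM, at least 40.3-fold above the floor of C57BL/6J. Ifi44l read 0.495, 0.838, 1.48, 1.35 and 1.57 CPM, at least 25.7-fold above it. Both belong to families that also have lower members in the list.

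Genes of antigen presentation were, with 1 exception, lower where they were called. Of 33 tested genes of the major histocompatibility complex (MHC) and antigen processing, 17 were lower and 1 higher, with a median of -0.68. Nlrc5, the transactivator of class I genes, read 24.5, 31.5, 25, 33.4 and 32.9 CPM against 64.8, 80.3 and 86 CPM, without overlap, a difference of -1.40 (SE 0.17, adjusted p = 6.8e-07). The classical class I gene H2-D1 was at 201 ± 14.9 CPM (SD, n = 5) in 129S1/SvImJ and 371 ± 26.1 CPM (SD, n = 6) in C57BL/6J, a difference of -0.88 (SE 0.12, adjusted p = 2.85e-06). H2-Q7 was at 17.2 against 44 CPM and H2-T22 at 33.2 against 54.4 CPM, with differences of -1.35 and -0.71. The exception was H2-T10, chosen after its values were seen, at 3.57 against 2.07 CPM, whose call (adjusted p = 0.0357) ended in 11 alternative fits, among them those without 129S1/SvImJ replicate 2, 4 or 5 or C57BL/6J replicate 2, 3, 4 or 6 (0.051 to 0.0859). MHC genes are highly variable between strains and share sequence with each other: 26.5% of the 50-base stretches of H2-Q7 occur in other genes, as do 53.5% of those of H2-T22 and 50.4% of those of H2-T10, for both of them most often in the other of the pair.

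The plot of immune genes by mouse shows these differences beside those of immune cell markers.

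**Figure D2:**
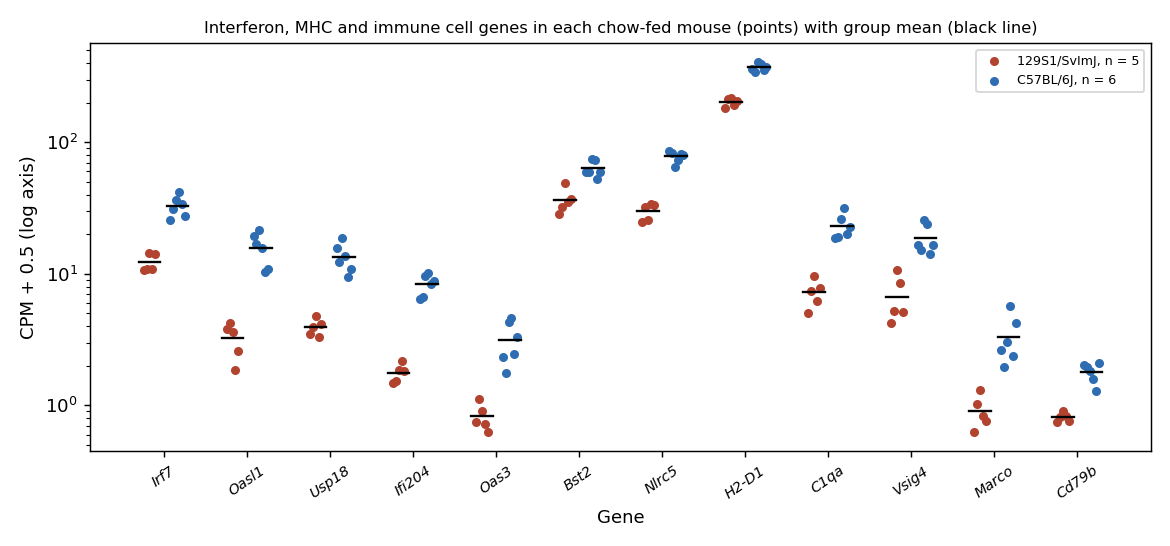
Points give each chow-fed mouse's level of 12 genes as CPM plus 0.5 on a log axis, with 129S1/SvImJ in red (n = 5), C57BL/6J in blue (n = 6) and a black line at each group's mean. For every gene drawn the highest 129S1/SvImJ mouse lies below the lowest C57BL/6J mouse, but the 12 genes were picked from longer lists. Over the whole lists the strains did not overlap for 29 of 54 interferon-stimulated genes and 13 of 33 MHC and antigen processing genes. The same held for 10 of 20 Kupffer cell and 6 of 9 lymphocyte markers, against 15.1% of all genes.

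Markers of macrophages and lymphocytes were lower in 129S1/SvImJ too, and in whole-tissue RNA fewer cells of a type and less RNA per cell cannot be told apart. Of 20 Kupffer cell markers 14 were lower and 1 higher, with a median of -1.06. Clec4f, a lectin specific to Kupffer cells, read 21.8, 24.7, 64.1, 40.8 and 30.7 CPM in 129S1/SvImJ and 64.2, 70.4 and 106 CPM as the lowest, median and highest of C57BL/6J. Its groups touched without overlapping. Vsig4, a complement receptor of resident macrophages, read 3.71, 4.71, 10.1, 7.98 and 4.59 CPM against 13.7, 16.1 and 25 CPM, a difference of -1.55 (SE 0.27, adjusted p = 0.000144). C1qa, a chain of the first complement component made by macrophages, was at 6.75 ± 1.73 CPM (SD, n = 5) in 129S1/SvImJ and 22.6 ± 5.12 CPM (SD, n = 6) in C57BL/6J, a difference of -1.75 (SE 0.21, adjusted p = 6.71e-07). Cd68, a lysosomal protein of macrophages, was at 2.18 against 5.74 CPM, and Marco, a scavenger receptor named after its values were seen, at 0.411 against 2.82 CPM. Slc40a1, the iron exporter ferroportin, was the 1 marker that was higher, at 253 against 189 CPM and 0.42, and hepatocytes express it too.

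Markers listed for circulating and recruited cells showed the same direction in fewer genes. Whether their RNA came from such cells or from resident macrophages was not tested. Of 13 tested markers of recruited monocytes, macrophages and neutrophils 5 were lower and none higher. Mpeg1, a pore-forming protein of macrophages, was at 30.9 ± 7.6 CPM (SD, n = 5) in 129S1/SvImJ and 95.7 ± 24.8 CPM (SD, n = 6) in C57BL/6J, a difference of -1.63 (SE 0.27, adjusted p = 8.27e-05). Fcgr1, an antibody receptor, was at 0.647 against 2.26 CPM and Csf3r, the receptor for the neutrophil growth factor, at 1.05 against 3.06 CPM. Defining neutrophil genes were near 0 in all mice, with no Ly6g count in any library and S100a8 at no more than 0.393 CPM. Of 9 tested lymphocyte markers, out of 26 listed, 7 were lower and none higher, with a median of -1.39. The B-cell receptor chains Cd79a and Cd79b were at 0.148 against 0.994 CPM and 0.313 against 1.3 CPM, and immunoglobulin heavy chain Ighm was at 3.23 against 14 CPM. Cd3e, a T-cell receptor chain that did not pass the filter, stayed at or below 0.742 CPM in 129S1/SvImJ and 1.45 CPM in C57BL/6J.

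Summed over whole lists, the Kupffer markers spanned 535.5 to 808 CPM in 129S1/SvImJ and 710.1 to 1027 CPM in C57BL/6J, and without Slc40a1 291.4 to 533.6 and 541.2 to 797.2 CPM. The lymphocyte markers spanned 22.2 to 28.2 and 48.6 to 73.8 CPM, and the recruited myeloid markers 74.8 to 98.3 and 147.6 to 226.7 CPM. The interferon-stimulated genes spanned 702.2 to 766 and 1014 to 1364 CPM, so their sum moved in the same direction as those of the immune cells, and the part of immune cell content in the interferon difference was not tested. Sinusoidal endothelial markers summed to 918.3 to 1284 and 961.1 to 1207 CPM, with 6 of 23 lower and 2 higher, Clec1b at 8.49 against 13.8 CPM and the scavenger receptor Stab2 at 198 against 159.7 CPM. Blood and erythroid markers had none of 7 called, at sums of 275.8 to 361.1 and 213.7 to 289.2 CPM. In the 6 mice with lower 7SK the interferon list had 25 lower and 2 higher members and the Kupffer list 15 and 1. In the 5 mice with higher 7SK the counts were 27 and 2 and, for the Kupffer list, 7 and 0. Lymphocyte calls were 3 and 1 of the members tested within those levels, all lower, against 7 over all mice.

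**Figure D3:**
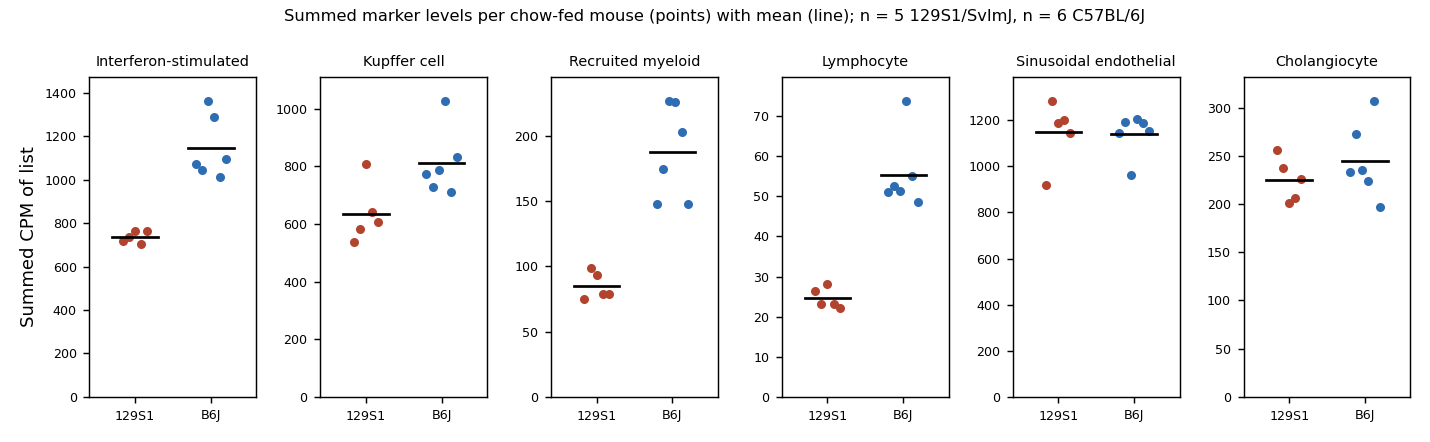
Each panel sums the CPM of a marker list per chow-fed mouse (points, with the mean as a line) for 129S1/SvImJ (129S1, n = 5) and C57BL/6J (B6J, n = 6), on axes that start at 0. The interferon, recruited myeloid and lymphocyte sums do not overlap between strains, while those of Kupffer cell, endothelial and cholangiocyte markers do.

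At the far end of the comparison stand genes read in 1 strain and almost not in the other. No 129S1/SvImJ chow mouse had a count for 4 genes at 5 CPM or more in C57BL/6J, and no C57BL/6J chow mouse for 5 genes at that level in 129S1/SvImJ. On the high-fat diet 3 of the 4 and 3 of the 5 again had no count in the strain that lacked them. At 1 CPM or more there were 15 and 14 such genes, of which 7 and 10 were without a count on both diets. The plot of near-absent genes shows 12 of the largest differences by mouse.

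**Figure D4:**
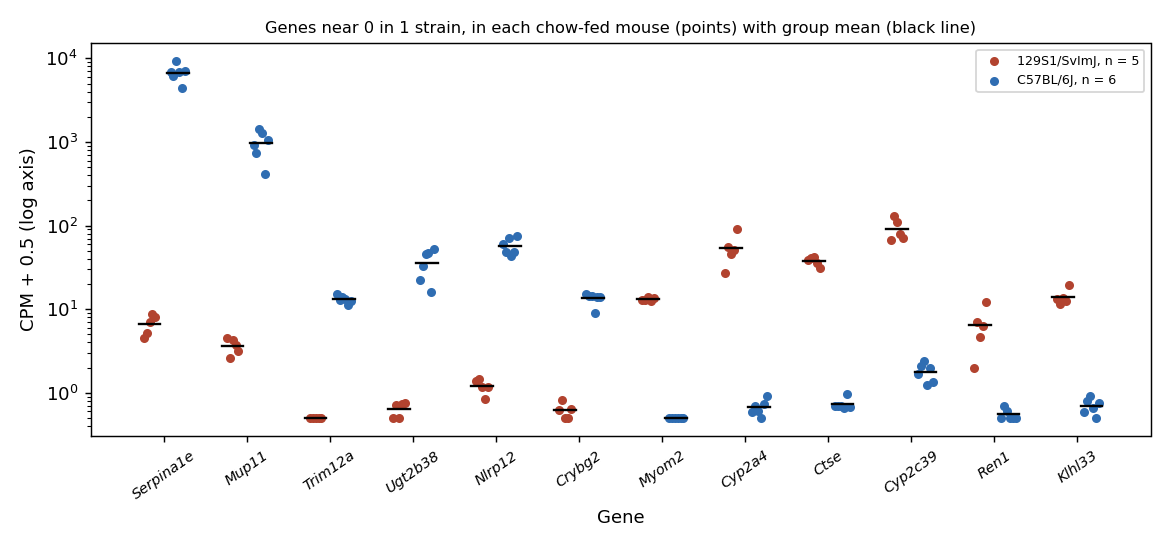
Points give each chow-fed mouse's level of 12 genes as CPM plus 0.5 on a log axis, 129S1/SvImJ in red (n = 5) and C57BL/6J in blue (n = 6), with black lines at the means, so that a mouse with no count sits at 0.5. Serpina1e to Crybg2 are near 0 in 129S1/SvImJ and Myom2 to Klhl33 near 0 in C57BL/6J, and no gene drawn has overlapping groups. Genes with the largest folds were named only where the groups did not overlap, so the plot could not show otherwise for them.

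Serpina1e showed the largest loss of an abundant transcript. It encodes a form of alpha-1 antitrypsin, the main plasma inhibitor of neutrophil elastase, from a cluster of near-identical genes (ENSMUSG00000072849.10, chromosome 12, 103946931 to 103958975, mm10). Its counts were 4.08, 4.71, 6.48, 8.32 and 7.48 CPM in 129S1/SvImJ and 4408, 6879 and 9259 CPM in C57BL/6J, a difference of -10.09 (SE 1.01, adjusted p = 1.62e-07). The neighbouring Serpina1d was at 676 against 1943 CPM and -1.52, while Serpina11 was higher, at 121 against 31.6 CPM and 1.94. Of 17 tested genes of the Serpina1 and Serpina3 families 4 were higher and 5 lower, Serpina12, known as the adipokine vaspin, among the lower at 12.6 against 84 CPM. Between the Serpina1 copies 34.6% of the 50-base stretches of Serpina1e and 50.9% of those of Serpina1d also occur in other genes, so reads can be split between copies.

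The major urinary proteins (MUPs), pheromone carriers that male mouse liver secretes in large amounts, also differed copy by copy. Mup11 was at 3.14 ± 0.782 CPM (SD, n = 5) in 129S1/SvImJ and 971 ± 369 CPM (SD, n = 6) in C57BL/6J, a difference of -8.28 (SE 0.80, adjusted p = 9.52e-08), and Mup20, the pheromone darcin, was at 217 ± 63.1 CPM (SD, n = 5) in 129S1/SvImJ and 2070 ± 418 CPM (SD, n = 6) in C57BL/6J, a difference of -3.25 (SE 0.31, adjusted p = 5.27e-08). Mup17 stood at 37.4 against 605 CPM, Mup14 at 55.7 against 289 CPM and Mup12 at 1.41 against 76.8 CPM. Of 17 tested MUP genes 5 were lower and 2 higher. Mup9 was one of the higher, at 186 against 37.8 CPM and 2.30, a call (adjusted p = 0.0316) that ended in 7 alternative fits, among them those without 129S1/SvImJ replicate 4 or 5 or C57BL/6J replicate 1, 2 or 5 (adjusted p of 0.0597 to 0.0735). From 50.5% (Mup20) to 85.4% (Mup12) of their 50-base stretches are shared with other genes, so the copy that a read came from is uncertain. Among 29 male-biased liver genes 8 were lower and 2 higher (34.48% called), and among 19 tested female-biased ones 5 were higher and 4 lower (47.37%), against 25.0% of all genes. These counts include the Mup, Ugt and Cyp genes named here.

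The Trim cluster of chromosome 7 encodes antiviral proteins of the kind that recognise retroviral capsids. Of 11 tested members 5 were lower and 3 higher. Trim12a (ENSMUSG00000066258.13, chromosome 7, 104299894 to 104315466) had no count in any 129S1/SvImJ mouse and 10.7, 12.7 and 14.9 CPM as lowest, median and highest of C57BL/6J, at least 177-fold lower. Trim5, named after its values were seen, also had none in 129S1/SvImJ and a mean of 2.35 CPM in C57BL/6J, at least 32.6-fold lower. Trim30d was at 0.274 against 9.69 CPM and -5.13. Trim34a was lower, at 1.5 against 7.93 CPM, and its near copy Trim34b higher, at 2.75 against 0.0466 CPM, and 56.8% of the 50-base stretches of Trim34b stand in Trim34a too.

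Several enzymes of drug and steroid clearance were far apart between the strains. Ugt2b38, a glucuronosyltransferase that tags steroids and drugs for excretion, was at 0.139 against 35.5 CPM, a difference of -7.83. Ugt1a9 went the other way, at 209.8 ± 9.39 CPM (SD, n = 5) in 129S1/SvImJ and 21.2 ± 3.85 CPM (SD, n = 6) in C57BL/6J and 3.31 (SE 0.37, adjusted p = 7.81e-07), while Ugt1a1, the enzyme that conjugates bilirubin, was lower at 140.1 against 236 CPM. The Ugt1a genes share their last exons, and 62% of the 50-base stretches of Ugt1a9 and 80.2% of those of Ugt1a1 are shared with other genes. Of 18 tested glucuronosyltransferases 5 were higher and 5 lower.

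Cytochromes P450 of families 1 to 3, the drug- and steroid-oxidising enzymes, had 10 of 45 tested members higher and 8 lower. Cyp2a4, a steroid hydroxylase with higher levels in female than in male mouse liver, read 26.3, 55.4, 44.9, 51.1 and 91.6 CPM against 0, 0.149 and 0.423 CPM, a difference of 8.14 (SE 1.17, adjusted p = 2.06e-05). Cyp2c39, a retinoic acid hydroxylase, was at 91.2 ± 27.9 CPM (SD, n = 5) in 129S1/SvImJ and 1.29 ± 0.452 CPM (SD, n = 6) in C57BL/6J, a difference of 6.16 (SE 0.44, adjusted p = 5.47e-10). Cyp2c40 and Cyp2c69 were lower, at 0.0929 against 4.52 CPM and 0.0487 against 1.99 CPM. Of the 50-base stretches of Cyp2c40 60.3% occur in other genes, most often in Cyp2c69, and of those of Cyp2a4 38.8%. Cyp3a11, a major drug-metabolising cytochrome, was at 530.3 ± 144 CPM (SD, n = 5) in 129S1/SvImJ and 1305 ± 134 CPM (SD, n = 6) in C57BL/6J (adjusted p = 0.000102). Cyp2c37 was lower as well, at 64.3 against 215 CPM, and both are markers of the hepatocytes around the central vein. In that pericentral list 6 of 24 were lower and 5 higher, against 2 lower and 4 higher of 25 periportal markers (24%, near the 25.0% of all genes).

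Other lower genes of this kind were Nlrp12, an NLR-family regulator of inflammation, at 0.695 against 57.1 CPM and -6.33, and Clec2h, a C-type lectin, at 0.19 against 11.8 CPM. Acpp, a phosphatase, was at 0.0209 against 13 CPM, Crybg2 at 0.114 against 13 CPM and Lrit2 at 0.078 against 7.86 CPM. Mug2, a murinoglobulin that inhibits proteases in plasma, was lower at 85.2 ± 27.2 CPM (SD, n = 5) in 129S1/SvImJ and 906 ± 141 CPM (SD, n = 6) in C57BL/6J, a difference of -3.41 (SE 0.26, adjusted p = 1.05e-09). Selenbp2, a selenium-binding protein, was at 62.2 against 564 CPM and -3.18 (adjusted p = 0.00969), a call not made within either 7SK level. Of the 50-base stretches of Mug2 50.5% and of Selenbp2 43.9% occur in other genes. Moxd1 was at 0.0891 against 15.6 CPM with an adjusted p of 0.0461, and C57BL/6J mice ranged from 0.388 to 71.2 CPM. Its call ended without C57BL/6J replicate 3 (adjusted p = 0.158) or replicate 4 (0.0553), and without any single one of the 129S1/SvImJ mice (0.0824 to 0.0886).

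Among genes near absent from C57BL/6J, Myom2, a sarcomere protein, read 12.4, 12.2, 13.4, 11.9 and 13.3 CPM in 129S1/SvImJ and had no count in C57BL/6J, at least 283-fold higher (ENSMUSG00000031461.4, chromosome 8, 15057653 to 15133541). BC018473 was at least 137-fold higher, on a mean of 6.13 CPM. Ctse, the aspartic protease cathepsin E, was at 37.3 against 0.232 CPM, and Ren1, the kidney enzyme renin that starts angiotensin production, at 5.91 against 0.0496 CPM. Mettl7a3 was at 11.5 against 0.0634 CPM, Klhl33 at 13.5 against 0.203 CPM and Wdr72 at 9.51 against 0.128 CPM. Rn7s2, a 7SL RNA of the signal recognition particle, stood at a mean of 302 CPM against no count, and all its 50-base stretches stand in Rn7s1, so its reads cannot be assigned to either copy. Abca3, a lipid transporter, was the abundant gene with the smallest adjusted p named here, at 532 ± 45.1 CPM (SD, n = 5) in 129S1/SvImJ and 104 ± 10.6 CPM (SD, n = 6) in C57BL/6J and 2.36 (SE 0.09, adjusted p = 4.94e-16). Hsd3b2, a steroid dehydrogenase, was at 214 against 47.9 CPM, and Apcs, the pentraxin serum amyloid P that differs between mouse strains in plasma, at 179 ± 15.2 CPM (SD, n = 5) in 129S1/SvImJ and 54.1 ± 19.8 CPM (SD, n = 6) in C57BL/6J, a difference of 1.73 (SE 0.19, adjusted p = 2.53e-07).

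Genes of fatty acid synthesis, uptake and storage leaned lower in 129S1/SvImJ. Of 22 tested genes of fatty acid synthesis and desaturation 6 were lower and 1 higher, 31.82% against 25.0% of all genes, with a median of -0.36. Scd1, the stearoyl-CoA desaturase that makes monounsaturated fatty acids, read 5250, 4888, 7162, 6084 and 5611 CPM against 6329, 16091 and 26835 CPM. The strains overlapped, and the difference was -1.52 (SE 0.28, adjusted p = 0.000296). Elovl6, which lengthens the chains that Scd1 desaturates, was at 92.6 ± 15.1 CPM (SD, n = 5) in 129S1/SvImJ and 248 ± 58.7 CPM (SD, n = 6) in C57BL/6J without overlap, a difference of -1.42 (SE 0.21, adjusted p = 2.25e-05). Acacb, the acetyl-CoA carboxylase that controls entry of fatty acids into mitochondria, was at 138 against 335 CPM and -1.28, and it was not called within either 7SK level. Pnpla3, a lipid-droplet protein known from human fatty liver genetics, was at 0.293 against 2.92 CPM, and Thrsp, a lipogenic factor, was the 1 higher member, at 446 against 189 CPM. Both were named after their values were seen, and the call of Thrsp (adjusted p = 0.0307) ended without 129S1/SvImJ replicate 4 or 5 or C57BL/6J replicate 1, 2 or 3 (0.0601 to 0.134).

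Pparg, the nuclear receptor that drives fat storage when it is raised in liver, read 3.09, 3.04, 4.45, 3.15 and 4.99 CPM against 6.57, 10.6 and 19.3 CPM, without overlap, a difference of -1.65 (SE 0.37, adjusted p = 0.00216). Of 17 genes of fatty acid uptake and binding 7 were lower, and Vldlr, the receptor for very-low-density lipoprotein, was the 1 higher, at 12 ± 3.06 CPM (SD, n = 5) in 129S1/SvImJ and 1.56 ± 1.01 CPM (SD, n = 6) in C57BL/6J, a difference of 2.91 (SE 0.48, adjusted p = 8.26e-05). The fatty acid carrier Cd36, chosen after its values were seen, was at 23.3 against 48 CPM. Of 20 lipid droplet and lipolysis genes 8 were lower and 4 higher: the droplet protein Fitm1 was at 4.47 against 21.6 CPM and the lipase Pnpla2 at 70.6 against 103 CPM, while the coat protein Plin3 was higher, at 52.4 against 38.6 CPM. Plin2, the main droplet coat protein of hepatocytes, also named after the fact, was at 404 against 726 CPM, and its call (adjusted p = 0.0417) ended in 10 alternative fits, among them those without 129S1/SvImJ replicate 2, 4 or 5 or C57BL/6J replicate 1, 2 or 6 (0.0519 to 0.109). Adipocyte defining genes were near 0 (above), while the whole adipocyte list summed to 45.7 to 64.1 and 64.7 to 112.8 CPM. Its part in these differences was not tested.

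The list of peroxisomal oxidation, the chain shortening of very long fatty acids, also holds Cyp4 enzymes, which act outside the peroxisome, and had 9 of 30 tested genes lower and 4 higher. Abcd3, a transporter of the peroxisomal membrane, was at 499 ± 38.7 CPM (SD, n = 5) in 129S1/SvImJ and 941 ± 82.7 CPM (SD, n = 6) in C57BL/6J, a difference of -0.92 (SE 0.09, adjusted p = 8.31e-09). Decr2, a reductase for unsaturated fatty acids, was at 139.7 against 248 CPM, and neither gene overlapped between the strains. Cyp4a12a, which oxidises fatty acids at their far end and is male-biased, was higher at 504 against 268 CPM. In mitochondrial fatty acid oxidation and ketogenesis 5 of 25 were higher and 1 lower, 24% against 25.0% of all genes, with the dehydrogenase Acadm at 406 against 275 CPM and the ketone-body enzyme Bdh1 at 317 against 215 CPM. In triglyceride assembly 3 of 16 were higher and 1 lower, the same 25.0% as over all genes. Gpat3 and Gpat4, which both add the first fatty acid to glycerol phosphate, went opposite ways: Gpat3 was at 27.4 against 4.56 CPM and 2.60, and Gpat4 at 161 against 276 CPM and -0.78. Dgat2, which adds the last fatty acid, was higher at 717 against 513 CPM.

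Few genes of cholesterol synthesis were called, and the called genes of bile acid synthesis were higher in 129S1/SvImJ. Of 25 tested genes of cholesterol synthesis and uptake 1 was called, Mvk (mevalonate kinase), at 30.9 against 20 CPM and 0.63 (adjusted p = 0.0119), and within the chow libraries alone that call was not made (0.0551). Sqle, the squalene epoxidase, read 126, 123, 89.2, 100.2 and 159.5 CPM against 61.1, 124 and 149 CPM, a difference of 0.04 (SE 0.39, adjusted p = 0.956) whose sign changed between fits. Of 16 bile acid synthesis genes 5 were higher and none lower, 31.25% called against 25.0% of all genes. The median of that list was 0.095, and 3 of the 5 were called the same way on the high-fat diet. Cyp7a1, the rate-limiting enzyme of bile acid synthesis, read 284, 634, 273, 579.5 and 750.0 CPM against 122, 210.5 and 362 CPM. Its groups overlapped, the difference was 1.17 (SE 0.40, adjusted p = 0.0374), and the call ended in 13 alternative fits, 7 of them leaving out a single mouse (129S1/SvImJ replicate 2, 4 or 5, or C57BL/6J replicate 1, 2, 4 or 6, adjusted p of 0.0576 to 0.108). Fgfr4, the receptor through which gut FGF15 represses Cyp7a1, was at 81.8 ± 3.49 CPM (SD, n = 5) in 129S1/SvImJ and 47 ± 4.53 CPM (SD, n = 6) in C57BL/6J without overlap, a difference of 0.80 (SE 0.09, adjusted p = 8.26e-08).

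Abcg8, a subunit of the pump that sends cholesterol into bile, was at 224 ± 20 CPM (SD, n = 5) in 129S1/SvImJ and 134 ± 29.3 CPM (SD, n = 6) in C57BL/6J, a difference of 0.74 (SE 0.17, adjusted p = 0.00189), and Scarb1, the receptor for high-density lipoprotein, at 266 against 181 CPM. In that list of 15 sterol efflux genes 6 were higher and 4 lower, the lower ones including the cholesterol-esterifying Soat1 at 7.59 against 12.3 CPM. Slc10a1 and Slc10a2, carriers that bring bile acids into cells, were both higher, at 944 against 669 CPM and 83.9 against 29 CPM. Of 18 apolipoproteins 6 were higher and 2 lower, 44.44% against 25.0% of all genes. Apoa4, an apolipoprotein of chylomicrons, read 1475, 1152, 1448, 809.9 and 1058 CPM against 104, 194 and 246 CPM, without overlap, a difference of 2.66 (SE 0.49, adjusted p = 0.000348). Of its 50-base stretches 60.9% also occur in other annotated genes. Apoc3, an inhibitor of triglyceride clearance, was at 1365 against 909 CPM and Apoh at 2244 against 1592 CPM. The 2 lower ones, Apol9a at 5.46 against 31.1 CPM and Apol9b at 21.5 against 49.8 CPM, are known as interferon-inducible. Pltp, the phospholipid transfer protein, was lower at 18 ± 3.12 CPM (SD, n = 5) in 129S1/SvImJ and 104 ± 60.9 CPM (SD, n = 6) in C57BL/6J, a difference of -2.53 (SE 0.44, adjusted p = 0.000197).

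Chaperones of the endoplasmic reticulum and of the cytosol were lower where they were called. Of 29 tested genes of the unfolded protein and integrated stress response 13 were lower and none higher, with a median of -0.38. Only 2 of those 13 were called the same way on the high-fat diet, against 71.75% of all chow calls. Hyou1, a chaperone of the reticulum, was at 207 against 409 CPM with overlapping groups and -0.98. It was not called within the lower or the higher 7SK level (edgeR adjusted p = 0.217 and 0.178). Atf6, the sensor that induces such chaperones, was at 98.1 against 152 CPM without overlap and -0.63. The count of 13 lower genes depended on the libraries used. It was 7 lower in the fit of the chow libraries alone, 1 lower and 1 higher in the mice with lower 7SK, and 4 lower in those with higher 7SK. Without C57BL/6J replicate 3 it was 11 lower and 1 higher. Of 14 heat shock proteins 5 were lower and none higher, Hspa8 at 248 ± 43 CPM (SD, n = 5) in 129S1/SvImJ and 481 ± 86.6 CPM (SD, n = 6) in C57BL/6J (-0.96 (SE 0.15, adjusted p = 2.99e-05)) and the small heat shock protein Hspb1 at 1.46 against 8.71 CPM (-2.54). Of their 50-base stretches 39.4% and 50.1% occur in other annotated genes.

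Acute-phase genes, which the liver raises in inflammation, were split, with 6 of 31 higher and 6 lower, 38.71% against 25.0% of all genes. Saa1, serum amyloid A, was called lower (adjusted p = 0.0429) at 17.6 against 100.5 CPM, but C57BL/6J replicate 3 alone stood at 484.6 CPM while the rest of that group spanned 13.2 to 59.5 CPM and 129S1/SvImJ 11.5 to 29.1 CPM. Without that mouse the difference was -0.46 (adjusted p = 0.595), and without any single one of the 129S1/SvImJ mice the call ended as well (0.0517 to 0.0927). Il1r1, a receptor for interleukin 1, was lower at 33.4 against 61.2 CPM, and Crp, a pentraxin, at 238 against 325 CPM. Among complement genes 9 of 37 were lower and 3 higher, 32.43% against 25.0% of all genes. Of the complement genes the C1q chains also stand in the Kupffer list. Coagulation factors had 5 of 32 lower and 3 higher, the same 25.0% as over all genes, with F11 higher at 186 against 108 CPM and F12 lower at 345 against 452 CPM.

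Nnmt, which methylates nicotinamide and thereby uses up methyl groups, read 1.61, 2.83, 4.72, 2.7 and 4.59 CPM in 129S1/SvImJ and 38.1, 52.1 and 126 CPM in C57BL/6J. The groups were far apart, and the difference was -4.29 (SE 0.53, adjusted p = 2.93e-06). In the list of methyl group and nicotinamide metabolism 7 of 29 were higher and 4 lower, 37.93% against 25.0% of all genes. Ahcy, which clears the product of methyl transfer, was lower at 243 against 443 CPM, and Pemt, which methylates phosphatidylethanolamine, higher at 227 against 180.1 CPM. Nitrogen disposal and amino acid breakdown had 47 tested genes, of which 10 were higher and 2 lower, 25.5% against 25.0% of all genes, among them Bckdhb, a subunit of the branched-chain ketoacid dehydrogenase, higher at 111 against 75.4 CPM and Kmo, of the kynurenine pathway, lower at 229 against 356 CPM. The xanthine-oxidising enzyme Xdh was lower, at 76.4 to 109.3 CPM against 214 to 264 CPM and a difference of -1.41 (SE 0.10, adjusted p = 5e-11), and the aldehyde oxidase Aox3 higher at 1929 against 1212 CPM.

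Tcf7l2, the factor in the title of the series, was at 62.4 ± 7.46 CPM (SD, n = 5) in 129S1/SvImJ and 58.3 ± 4.86 CPM (SD, n = 6) in C57BL/6J, and its difference of 0.10 (SE 0.09) was not called (adjusted p = 0.471). Axin2, a feedback target of Wnt signalling, was at 21 against 16.8 CPM and not called either (adjusted p = 0.409). Of 37 tested genes of the Wnt and TCF pathway 5 were lower and 3 higher, 21.6% against 25.0% of all genes. The receptor Fzd6 was the strongest of them, at 1.38 ± 0.399 CPM (SD, n = 5) in 129S1/SvImJ and 13.9 ± 3.71 CPM (SD, n = 6) in C57BL/6J, a difference of -3.33 (SE 0.25, adjusted p = 6.67e-11). Ccnd1, cyclin D1, was lower at 11.2 against 48.4 CPM and the ligand Wnt5a higher at 6.24 against 2.48 CPM. Among 25 cell cycle genes 6 were lower and 2 higher, 32% against 25.0% of all genes, with the replication helicase subunit Mcm6 at 0.591 against 4.12 CPM.

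Large housekeeping groups were split or little called. Of 22 clock genes 1 was called, the nuclear receptor Rora, lower at 161 against 203 CPM. Of 80 cytosolic ribosomal protein genes 6 were higher and 6 lower, 15% against 25.0% of all genes. Examples are Rpl15 at 71.4 against 45.2 CPM and Rpl34 at 34.8 against 66.5 CPM, and such genes have many processed copies in the genome. Oxidative phosphorylation had 11 of 77 higher and 3 lower, 18.18% against 25.0% of all genes, with the complex I subunit Ndufa12 furthest apart at 41.2 ± 4.31 CPM (SD, n = 5) in 129S1/SvImJ and 17.2 ± 3.54 CPM (SD, n = 6) in C57BL/6J. Among non-coding RNAs Meg3, an imprinted transcript, was higher at 24 against 2.53 CPM. Neat1, the scaffold of nuclear paraspeckles, read 998, 749.5, 1023, 1420 and 1646 CPM against 1383, 5811 and 7726 CPM, a difference of -2.24 (SE 0.33, adjusted p = 2.3e-05), with C57BL/6J replicate 3 at 1383 CPM among the 129S1/SvImJ values.

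Called genes were spread over the genome. The share called was 14.8% of the 393 genes tested on chromosome X, 32.1% on chromosome 14 and 30.1% on chromosome 17, which holds the MHC, and the other autosomes lay between 21.8% and 28%. In 692 windows of 2000000 bases with at least 8 tested genes the median share called was 23.1%. The highest was chr2:122000001-124000000 (mm10), where 9 of 11 genes were called, 5 higher and 4 lower. It holds Eif3j1, a subunit of translation initiation factor 3 (ENSMUSG00000027236.8, chromosome 2, 122028546 to 122056598), at 7.44 ± 1.47 CPM (SD, n = 5) in 129S1/SvImJ and 20.7 ± 1.02 CPM (SD, n = 6) in C57BL/6J, Bloc1s6 at 23.8 against 13 CPM and the sulfide-oxidising Sqor at 169.7 against 112 CPM. Eif3j2, a near copy of Eif3j1 on another chromosome that was named after its values were seen, was higher, at 8.24 against 0.148 CPM, and 90.8% of its 50-base stretches stand in Eif3j1. In chr13:118000001-120000000, the window of Nnt, 6 of 8 were called, 5 of them lower, with Tmem267 at 2.37 against 7.93 CPM and -1.74.

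The same contrast in other mice, 6 of 129S1/SvImJ and 7 of C57BL/6J on the high-fat diet, called 5375 genes (37.0%). Of the 3636 genes called on chow 2609 (71.75%) were called the same way there, which is 48.54% of the high-fat calls, 11 were called the other way and 1016 were not called. Of the 1097 chow calls of at least 2-fold 964 (87.88%) were called the same way. Across all genes tested the 2 sets of differences had a Pearson r of 0.87 and a Spearman rho of 0.67. Genes are not independent replicates, and both contrasts were fitted in 1 model.

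**Figure D5:**
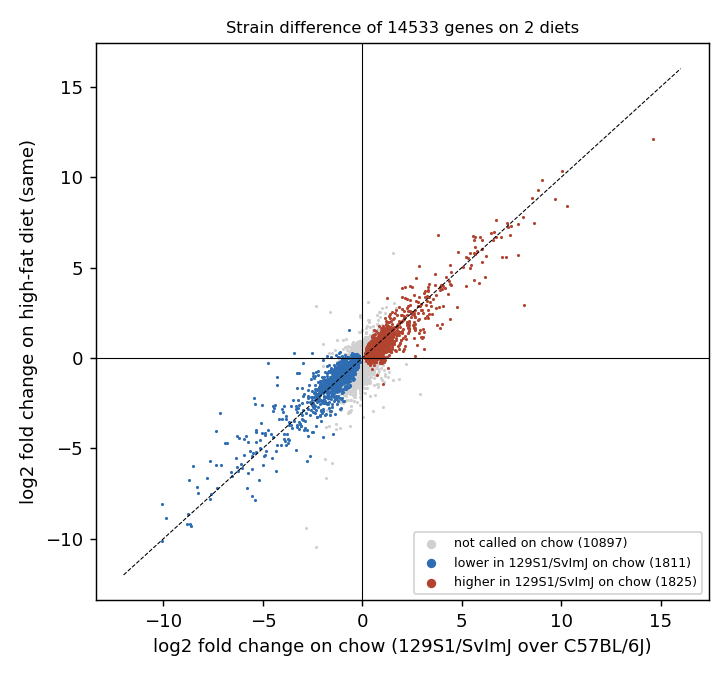
Each point is 1 of 14533 genes, with its log2 difference between strains on chow on the x axis and on the high-fat diet on the y axis, coloured by its call on chow (1811 lower in blue, 1825 higher in red, 10897 not called in grey), and the dashed line marks equal differences. Most coloured points lie at the lower left and upper right: 3443 of the 3636 (94.69%) have the same sign on both diets.

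Interferon genes held their direction on the second diet, with Irf7 at -1.58, Oasl1 at -2.98 and Usp18 at -2.52 (adjusted p of 2.46e-08, 6.98e-11 and 7.92e-10), and so did Serpina1e at -8.10 and Trim12a at -10.14. Other differences were read on chow and not called on the high-fat diet: Apoa4 at 0.13 (adjusted p = 0.842), Gpat4 at 0.06 (0.726), the leptin receptor Lepr at -1.55 on chow and 0.05 (0.913), and the prolactin receptor Prlr at 0.87 on chow and -0.07 (0.815). The test of the difference between the 2 contrasts called 43 genes in all (0.296%), of which 22 were also called on chow. That count was unsteady: it was 5, 6, 21 and 103 without 129S1/SvImJ replicate 1, 2, 5 or 4, and 15, 14, 79 and 13 without C57BL/6J replicate 2, 3, 5 or 6. Among the genes named here it called Gpat4 (adjusted p = 0.0431) and Nnmt (adjusted p = 0.0431), and Nnmt stood at -1.03 on the high-fat diet. Without 129S1/SvImJ replicate 1, 2 or 5 or C57BL/6J replicate 1, 2, 3 or 6 neither was called by that test (adjusted p of 0.054 to 0.116 for Gpat4 and 0.0513 to 0.113 for Nnmt). With the replicate number as a block Nnmt was not called (adjusted p = 0.0722) and Gpat4 was (0.028). After thinning to the smallest library Nnmt was not called (0.0546), and without the filter on low counts Gpat4 was not (0.0773). For Apoa4, Lepr and Prlr it gave adjusted p of 0.0796, 0.0773 and 0.114, so this test did not show a difference between diets for them, while DESeq2 gave 0.0173, 0.0059 and 0.0253. Sqle, not called on chow, was at -3.24 on the high-fat diet (adjusted p = 0.000979), but the test of the difference between the 2 contrasts did not call it.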

How the data were processed

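Total RNA of mouse liver was depleted of ribosomal RNA and made into strand-keeping libraries, per the labels' protocols. The authors deposited raw gene counts, which all tests used, and a matrix of variance-stabilized values on a log2 scale, used for 1 alternative. Per the submitters' processing notes, the build was mm10 and the software included STAR 2.5.4b, Bowtie2 2.2.3, Trimmomatic 0.36 and DESeq2 1.26.0. What each tool did, which one counted, with what strand setting and on which annotation release is not given in the sources used here, so overlapping and antisense genes may share reads.

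Symbols and coordinates came from GENCODE M21, and 95 identifiers (0.00747% of counts) did not match. In R 4.3.3, edgeR 4.0.16 kept 14533 genes (filterByExpr), scaled libraries by TMM and fitted all 24 libraries at once by robust quasi-likelihood with a mean for each strain and diet, so that the spread is shared across diets. The test is two-sided, fold changes carry a prior count of 0.125, SE is the fold change over the root of F, and SD is over mice. Labels give 1 library per mouse, and no pair of replicates agreed within counting noise (the lowest chi-square divided by its degrees of freedom was 5.49). For genes with no count in a group, a floor of 3 counts over that group's libraries replaced 0.

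The members and the 64 gene lists were chosen with earlier results of these data known, so their counts are descriptions. Named genes are up to 10 per direction with the largest folds at 5 CPM or more without overlap, 8 per direction at 100 CPM or more, the 4 smallest p per list, fixed genes of interest and genes of the most-called windows. Others are said to be chosen after their values were seen. 1 gene that this rule names is not reported here. On simulated counts from these libraries the test recovered 52.2%, 77.6% and 97% of genes changed 1.5-, 2- and 4-fold. The changed genes (67, 67 and 66) were drawn above 1 CPM and all others were left unchanged. In the data 25.0% of genes were called and some lie under 1 CPM, so these rates need not hold for them. Alternatives were RLE factors, no filter, DESeq2 1.42.0, limma 3.58.1 on the deposited log2 values, chow libraries alone, a replicate block, thinning and leaving out each chow mouse, and, added after seeing the data, fits by 7SK level. Sequence sharing was counted as 50-base stretches of a gene's GENCODE transcripts found in another gene.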

Additional observations from a re-analysis of the deposited data

Results flagged for a closer look

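Single mice stood apart from the rest of their group in 11 of 294 groups of values tested by the gap to the nearest mouse, where chance alone gives about 1 in 20. In 129S1/SvImJ, Acpp read 0.105 CPM in replicate 2, which is 1 count, and 0 in the others, where any count would be flagged. Bloc1s6 read 27.1 CPM in 129S1/SvImJ replicate 3 against 22.4 to 23.3 CPM. In C57BL/6J, replicate 3 was apart for Neat1 (1383 CPM against 5135 to 7726), H2-T22 (65.9 CPM against 50.5 to 53.8) and the sum of sinusoidal endothelial markers (961.1 CPM against 1146 to 1207). Replicate 4 of C57BL/6J was apart for Crybg2 (8.52 CPM against 13.4 to 14.8), the sum of Kupffer markers without Slc40a1 (797.2 CPM against 541.2 to 625.3) and the sum of lymphocyte markers (73.8 CPM against 48.6 to 55). Replicate 5 was apart for Ctse (0.466 CPM against 0.166 to 0.202), and replicate 6 for Cyp2c67 (332.6 CPM against 202.2 to 237.9) and Mvk (8.46 CPM against 21.1 to 23.8).

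The strain difference on chow differed from that on the high-fat diet, by the test of the interaction in edgeR, for Gpat4 by -0.84 (adjusted p = 0.0431) and for Nnmt by -3.25 (adjusted p = 0.0431) on the log2 scale. The call of Nnmt ended with the replicate block (0.0722) and after thinning (0.0546), that of Gpat4 without the filter on low counts (0.0773), and both calls without each of 7 single mice. All 5 chow mice of 129S1/SvImJ lay below all 6 of C57BL/6J for both genes.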

How the results depend on the processing

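The count of genes called for strain on chow was 3153 to 3514 when 1 mouse was left out and 3168 to 3859 under the other choices of normalization, filter, test and depth, and 2440 in the 6 mice with lower 7SK, 1125 in the 5 with higher 7SK and 3668 with the level as a term. Fewer mice entered the fits within 7SK levels. Of the 3636 calls 3003 kept their call and sign after thinning and 3467 with DESeq2. The interaction count of 43 was 296 with DESeq2 and 24 after thinning, and 5 to 103 when 1 mouse was left out. Among 135 genes named in the text, 2678 of 2814 combinations of gene and alternative kept sign and side of the threshold, 125 lost the call, 5 gained it and 6 changed sign. The gained calls were of Alb and Ddx3y. The changes of sign were Saa1 at 0.092 with lower 7SK, and Sqle at -0.0091 with the 7SK term, -0.16 with higher 7SK and -0.086 to 0.133 when 1 mouse was left out. The cause was not tested. List medians were recomputed with RLE factors and without the filter: 5 of 128 moved by 1 SD or more and 5 changed sign, all without the filter, which adds genes near 0. In fits whose list medians were added after seeing the data, of 64 medians 12 changed sign with lower 7SK, 6 with higher 7SK and 5 with the 7SK term, 5 without C57BL/6J replicate 3 and 3 in the chow libraries alone. Examples are the male-biased genes (from -0.30 to 0.0067) and the acute phase (from -0.12 to 0.092) with lower 7SK, cholangiocyte markers (from -0.19 to 0.0012) with chow alone and sterol efflux (from -0.09 to 0.11) with higher 7SK. Depth limits the scarce immune cell markers, many of which lie near 1 CPM.

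With the replicate number as a block, 3558 genes were called on chow and 17 for the interaction. The numbers were not treated as pairing the mice, since the labels tie no same-numbered animals together and 1 of 5 pairs stood below 0.1: deviations of same-numbered mice of the 2 strains correlated at 0.314, 0.121, 0.149, 0.159 and -0.00543, and 2 of 5 mice of 129S1/SvImJ correlated best with their own number. Of those 5 pairs 4 were over 0.1, and all 5 had both mice at the same 7SK level, so number and 7SK level moved together on chow.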
